A study of Mus musculus with 2 samples.

Results

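The genes described here encode the proteasome. They are the genes of the count tables whose symbols begin with Psm, followed by a letter from a to g and a number, apart from the inducible subunits Psmb8 and Psmb9, and with at least 100 UMIs (unique molecular identifiers, each standing for 1 captured RNA molecule) over both pools. The rule found 44 genes among 32285 genes in the tables. Of these, 14 encode the core particle and 17 the regulatory particle, and the other 13 encode 1 inducible core subunit, activators, an inhibitor and assembly chaperones. The members were selected on symbol and summed UMIs over both pools, and on no difference between groups. Psmb10 lay nearest to the minimum among the genes kept, with 3024 UMIs, while Psma8 with 68 UMIs and Psmb11 with 18 UMIs fell under it.

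Lens epithelium was taken from wild-type C57BL/6N mice at postnatal day 2, and single-cell RNA-seq was run on 2 independent pools, each of lenses from 4 to 8 pups. No treatment or mutation was compared, so the groups are cell states within each pool, found by marker genes alone: late differentiating, early differentiating, S-phase and G2/M lens epithelial cells (LECs), endothelial cells and mural cells, each set against resting LECs. The vessels around the lens were removed during dissection, and the source of the endothelial and mural cells that were still found was not tested. Each pool mixed animals, and n = 2 pools throughout.

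The proteasome degrades proteins tagged with ubiquitin. Its core particle is a barrel of alpha rings, which gate the entrance, and beta rings, which hold the catalytic sites. The regulatory particle caps the barrel: its base carries ATPases that unfold the substrate, and its lid removes the ubiquitin chain. Lens fiber cells clear their organelles as they mature and keep their proteins for life, and the ubiquitin-proteasome pathway is known to be active in differentiating lens cells. The genes of both particles lie scattered in the genome, here on 16 chromosomes, and are known to be expressed together, in part through the transcription factor Nfe2l1.

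After cell filters, 18494 of 21739 barcodes remained and 12780 fell into a gate. Per pool, the gates held 1189 and 851 late differentiating, 1375 and 1011 early differentiating, 772 and 900 S-phase, 613 and 635 G2/M, 332 and 213 endothelial, 109 and 133 mural and 2942 and 1658 resting cells. A further 23 and 24 macrophages were described only. The alpha crystallins Cryaa and Cryab, which were used to gate lens cells, took a median of 4.08% to 14.9% of the UMIs of a cell in the lens gates. In the endothelial and mural gates their median was 0.156% to 0.332%, and the part of carried-over lens RNA in the vascular values was not tested. The endothelial list (9 genes, among them Cldn5, Pecam1 and Cdh5) summed to 9854 and 10482 counts per 1000000 UMIs (CPM) in endothelial cells, against 76.7 and 78.2 CPM in resting cells. The mural list (10 genes, among them Rgs5, Pdgfrb and Notch3) summed to 28694 and 33584 CPM in mural cells, against 37.8 and 42.2 CPM in resting cells, and 5 fibroblast genes summed to 259 and 366 CPM in mural cells. The pools shared 27 barcode sequences, of which 20 were kept in both.

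The promoters of the members were searched, since many of these genes changed together below. RefSeq promoter windows (GRCm38.p6, 250 bases before to 50 bases after the annotated start) were found for 37 of the 44 genes. Psmb1, Psmb2, Psmb7, Psmc3, Psmd3, Psmd7 and Psmg2 were not matched. The 4 motifs were searched on both strands and were chosen after the promoters had been looked at. The motif CCGGAAGT, the core bound by ETS-family factors, was in windows of 9 of the 37 genes (24.3%), against 4.31% of 27025 genes. GGGCGG, the core bound by Sp1-type factors, was in 22 of 37 (59.5%), against 38.2% of all genes. CCAAT was in 12 of 37 (32.4%), against 41.1%. TGACNNNGC, the core of the element bound by Nfe2l1 and Nfe2l2, was in 6 of 37 (16.2%), against 14.0%. A GGGCGG match overlapped a CCGGAAGT match in Psme4 and a TGACNNNGC match in Psmd9. The 27025 genes are all those with a promoter window and were not limited to genes expressed in these cells, whereas the members are all expressed here. All of these are letter matches and not measured binding.

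The stretches that carry CCGGAAGT in 4 genes raised in late differentiating cells are printed because they show the motif near the start, and they read 5′ to 3′ on the strand of the gene, with the motif or its reverse complement in capitals. They lie at chr12:100110153-100110200 (plus strand, Psmc1), chr5:21785170-21785217 (plus strand, Psmc2), chr11:30771702-30771749 (plus strand, Psme4) and chr14:14120963-14121010 (minus strand, Psmd6), each before the annotated start of its window.
Psmc1: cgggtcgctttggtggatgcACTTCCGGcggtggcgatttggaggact
Psmc2: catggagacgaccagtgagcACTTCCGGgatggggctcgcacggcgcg
Psme4: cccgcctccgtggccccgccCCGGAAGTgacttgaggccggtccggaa
Psmd6: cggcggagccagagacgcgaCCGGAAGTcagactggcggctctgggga
A further window of Psmc2, at an alternative start downstream, also held the motif. The corresponding stretches with TGACNNNGC in the genes of 2 catalytic subunits lie at chr14:54618014-54618062 (minus strand, Psmb5) and chr11:70525328-70525356 (plus strand, Psmb6).
Psmb5: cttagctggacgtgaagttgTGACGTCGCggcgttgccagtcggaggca
Psmb6: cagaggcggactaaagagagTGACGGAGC
In late differentiating cells against resting cells, the 9 genes with CCGGAAGT had log2 fold changes of 0.13 to 1.02 with a median of 0.77, and the 28 matched genes without it had a median of 0.54. The medians with and without the motif were 0.73 and 0.53 for TGACNNNGC, 0.62 and 0.54 for GGGCGG and 0.61 and 0.54 for CCAAT, so genes with each of the 4 motifs had the higher median. The ranges were 0.43 to 1.02 for TGACNNNGC, -0.30 to 1.21 for GGGCGG and 0.13 to 0.97 for CCAAT. The 4 gene sets overlap, with Psme4 and Psmd12 in those of TGACNNNGC, GGGCGG and CCGGAAGT, so these medians are not separate results. The medians are descriptions, and the differences were not tested.

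The first question was how much of each cell state's RNA came from the proteasome. The 44 genes together held 1259479 UMIs, or 0.700% of all UMIs. Core genes took 0.370% and 0.381% of all UMIs in late differentiating cells, against 0.370% and 0.387% in resting cells (pools 1 and 2). G2/M cells had the highest core share, with 0.440% and 0.459%, and endothelial cells the lowest of the gates in the fit, with 0.357% and 0.328%. Regulatory particle genes took 0.252% and 0.244% in late differentiating, 0.295% and 0.288% in G2/M, 0.241% and 0.209% in endothelial and 0.222% and 0.218% in resting cells.

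Crystallins, the refractive proteins of the lens, took a median of 27.3% and 24.6% of the UMIs of late differentiating cells, against 7.89% and 7.75% in resting cells. The late gate was cut on a sum of 7 markers, among them the crystallin genes Cryba2, Crybb1 and Crybb3. Resting cells had to lie under its cut-off, so part of this difference was set by the gates. When crystallin UMIs were left out of the total, the core share was 0.524% and 0.520% in late differentiating cells, against 0.402% and 0.420% in resting cells. The regulatory particle share was then 0.357% and 0.334%, against 0.242% and 0.236% in resting cells. The choice of total therefore decided whether the core share of late differentiating cells lay at or above that of resting cells, whereas the regulatory particle share was higher in both pools on both totals. Per cell, late differentiating cells carried a mean of 44.4 and 50.7 core UMIs, against 20.4 and 26.2 in resting cells, and their median total was 11966 and 13601 UMIs, against 5395 and 6703 in resting cells.

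The ratio of core UMIs to regulatory particle UMIs does not depend on the total. It was 1.47 and 1.56 in late differentiating, 1.59 and 1.68 in early differentiating, 1.57 and 1.65 in S-phase, 1.49 and 1.59 in G2/M, 1.48 and 1.57 in endothelial, 1.39 and 1.49 in mural and 1.66 and 1.78 in resting cells. Within each pool, resting cells had the highest ratio of these 7 gates and mural cells the lowest. Pool 2 had the higher ratio in all 8 gates, macrophages included. On the log2 scale the mean was 0.60 ± 0.06 in late differentiating cells and 0.78 ± 0.07 in resting cells (SD, n = 2 pools). Within pools, the log2 ratio of late differentiating cells minus that of resting cells was -0.18 and -0.19, and for mural cells it was -0.26 and -0.25. No test was run on the ratio.

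**Figure D1:**
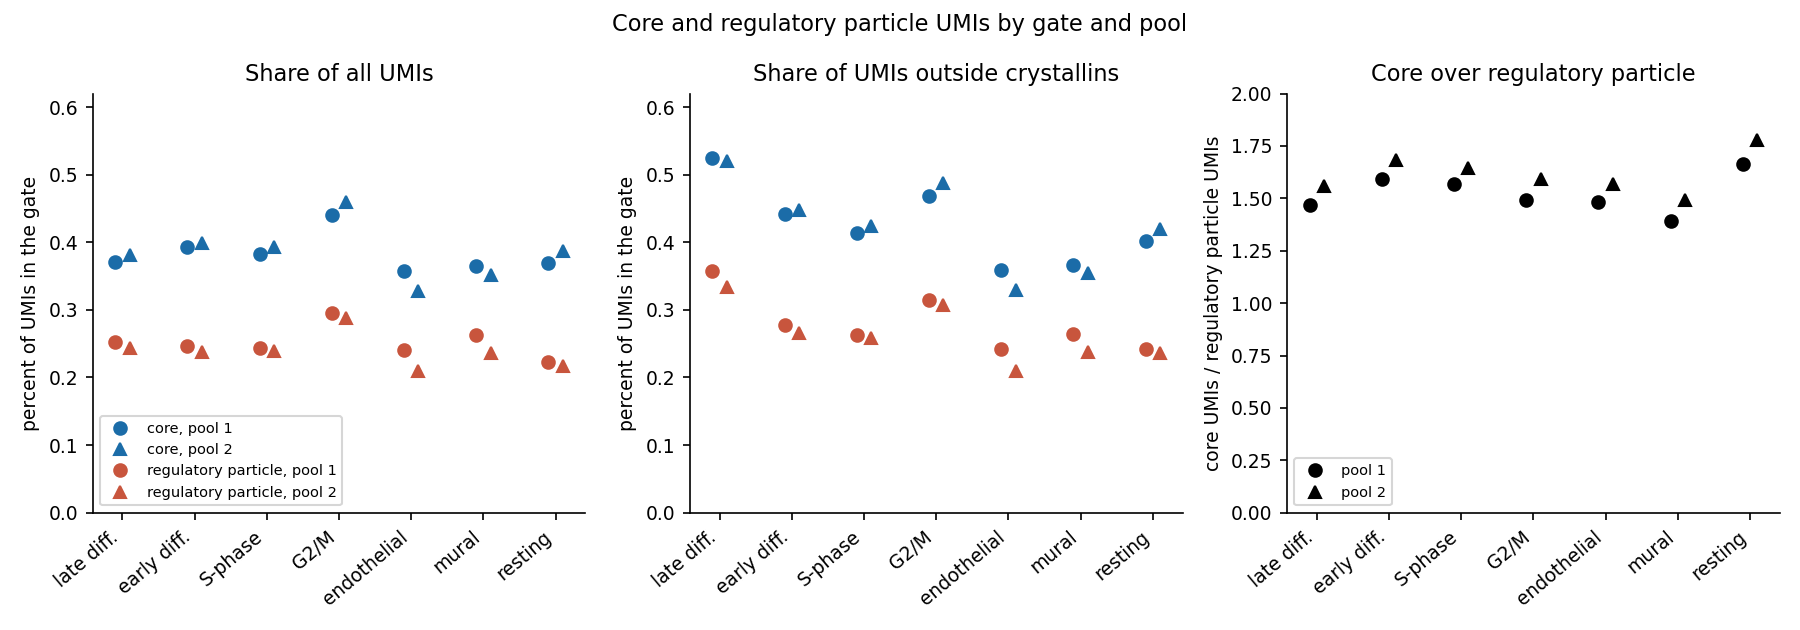
The left and middle panels plot core (blue) and regulatory particle (red) UMIs as a percent of all UMIs and of UMIs outside crystallins, and the right panel plots the ratio of core to regulatory particle UMIs, for each gate (x axis) and pool (circle, pool 1; triangle, pool 2). Core genes reach 0.524% and 0.520% of UMIs outside crystallins in late differentiating cells, and the ratio is highest in resting cells, at 1.66 and 1.78.

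Late differentiating cells were compared with resting cells gene by gene, on UMI counts summed per pool and gate. Levels below are CPM with totals scaled by TMM, edgeR's correction for composition, and adjusted p-values are from edgeR's quasi-likelihood test with Benjamini-Hochberg adjustment over the 13428 genes tested, with calls at 0.05. All 44 proteasome genes passed the filter on low counts. Of them, 39 were called higher in late differentiating cells and 2 lower, while 31.4% of all genes tested were called higher and 28.9% lower. The median log2 fold change was 0.60 over the 44 genes and -0.00 over all genes. All 14 core genes rose, with a median of 0.60, and all 17 regulatory particle genes rose, with a median of 0.76.

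This scale decides the size of the change. With total UMIs in place of TMM, 15 of the 44 genes were called higher and 15 lower, with 2 core genes higher and 4 lower and 11 regulatory particle genes higher and 3 lower. The median over all genes was then -0.57, and the proteasome genes lay 0.60 above it, as on the TMM scale. The change of scale moves all genes by nearly the same amount, so this gap could hardly differ between the scales. With total UMIs outside crystallins, 33 genes were higher and 2 lower. Among barcodes of 5000 to 10000 UMIs, where depth was closer, 31 were higher and 1 lower, with a median of 0.46. These 3 settings were chosen after seeing the data. Statements of rise and fall below are relative to the other genes of the same cells. Dissociation response genes such as Fos and Jun (6 genes) summed to 2240 and 2550 CPM in late differentiating cells, against 8582 and 7465 CPM in resting cells, and their part in the changes was not tested.

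Among the ATPases of the base, which form the ring that unfolds substrates, Psmc5 changed most. Psmc5 had 431 and 424 CPM in late differentiating cells, against 179 and 191 CPM in resting cells (log2 fold change 1.21 ± 0.05 SE, edgeR adjusted p = 2.36e-27). It was also higher with total UMIs (0.65) and within the depth window (0.99). Psmc2 had 245 and 229 CPM in late differentiating cells, against 119 and 123 CPM in resting cells (0.97 ± 0.06, edgeR adjusted p = 4.68e-21). Psmc1 had 122 and 113 CPM, against 60.3 and 62.8 CPM in resting cells (0.94 ± 0.07, edgeR adjusted p = 9.4e-18). In all 3 genes the pools of the late gate lay apart from those of the resting gate. The smallest change of the 6 ATPases was that of Psmc3, at 0.30, and with total UMIs it was lower (-0.27).

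The other members of the base and the lid rose as well. Psmd1, the scaffold subunit of the base, had 180 and 166 CPM in late differentiating cells, against 96.7 and 88.2 CPM in resting cells, a log2 fold change of 0.90. Psmd4, a ubiquitin receptor, rose by 0.68 and Psmd2, the second scaffold, by 0.77. The 8 lid genes ranged from 0.36 for Psmd11 to 0.86 for Psmd13, with the deubiquitinase gene Psmd14 at 0.63.

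Within the core, the catalytic subunits rose by like amounts. Psmb6, which cleaves after acidic residues, had 615 and 605 CPM in late differentiating cells, against 361 and 386 CPM in resting cells (0.71 ± 0.05, edgeR adjusted p = 2.44e-18). Psmb5, the chymotrypsin-like subunit, had 507 and 459 CPM, against 316 and 322 CPM in resting cells (0.60 ± 0.05, edgeR adjusted p = 3.52e-15). Psmb7, the trypsin-like subunit, had 225 and 242 CPM, against 143 and 168 CPM in resting cells (0.60 ± 0.06, edgeR adjusted p = 8.42e-14). The beta ring ranged from 0.39 to 0.71. The alpha ring spread more widely, from 0.24 for Psma5 and Psma1 to 0.79 for Psma3, with a median of 0.47. With total UMIs, Psmb6 remained higher (0.14, edgeR adjusted p = 0.00892), while Psmb5 (0.03, edgeR adjusted p = 0.565) and Psmb7 (0.03, edgeR adjusted p = 0.672) were not called.

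The activators split. Psme4, a large single-chain cap of the core, had 64.5 and 90.2 CPM in late differentiating cells, against 34.5 and 41.0 CPM in resting cells (1.02 ± 0.08, edgeR adjusted p = 1.06e-17). Psme1 and Psme2 encode the alternating subunits of an activator ring that opens the core without ATP and is known to be induced by interferon gamma. Psme1 had 107 and 104 CPM in late differentiating cells, against 128 and 132 CPM in resting cells (-0.30 ± 0.06, edgeR adjusted p = 3.66e-05). Psme2 had 84.6 and 82.2 CPM, against 89.7 and 99.7 CPM (-0.18 ± 0.07, edgeR adjusted p = 0.0213). Both were the only members called lower, and both were also lower with total UMIs (-0.87 and -0.74) and with totals outside crystallins (-0.51 and -0.39). Within the depth window Psme1 remained lower (-0.31) while Psme2 was not called (-0.12, edgeR adjusted p = 0.49). The last 300 bases of a Psme2 transcript matched Psme2b at 99.0% identity, and reads could be split between them, though Psme2b held 55 UMIs and Psme2 14244.

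Psme3, which forms a nuclear activator ring, was not called, with 31.3 and 24.8 CPM in late differentiating cells, against 26.7 and 24.9 CPM in resting cells (0.13 ± 0.10, edgeR adjusted p = 0.242), and it was lower with total UMIs (-0.44). Psmf1, an inhibitor of the core, had 24.5 and 20.1 CPM, against 17.9 and 18.6 CPM in resting cells (0.31 ± 0.11, edgeR adjusted p = 0.0125), and it was lower with total UMIs (-0.27). The inducible catalytic subunit Psmb10 had 23.9 and 23.7 CPM, against 14.8 and 18.4 CPM in resting cells (0.54 ± 0.11, edgeR adjusted p = 3.36e-05), and with total UMIs its sign turned (-0.0245, edgeR adjusted p = 0.857).

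Of the chaperones that build the core, Psmg2 rose by 0.60 (56.4 and 54.9 CPM in late differentiating cells, against 36.8 and 36.6 CPM in resting cells) and Psmg1 by 0.38 (55.4 and 53.7 CPM, against 41.0 and 43.2 CPM). Psmg1 was called lower with total UMIs (-0.19, edgeR adjusted p = 0.0263) and was not called in the depth window (edgeR adjusted p = 0.113). Psmg3 (0.20, edgeR adjusted p = 0.0754) and Psmg4 (0.09, edgeR adjusted p = 0.227) were not called, and with total UMIs both were lower (-0.37 and -0.47). The base chaperones Psmd5, Psmd9 and Psmd10 rose by 0.34, 0.75 and 0.53. With total UMIs Psmd5 was called lower (-0.23) and Psmd10 was not called (-0.0394), and neither was called in the depth window (edgeR adjusted p = 0.635 for Psmd5 and 0.108 for Psmd10).

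Of 28 other genes of the pathway, 27 had values in the fit. In late differentiating cells 18 were called higher and 3 lower, against 31.4% and 28.9% of all genes, with a median log2 fold change of 0.43. Adrm1, a ubiquitin receptor of the regulatory particle, rose by 0.66, and Pomp, which matures the core, by 0.61. The transcription factor Nfe2l1, a regulator of proteasome genes, had 113 and 138 CPM, against 77.1 and 75.4 CPM in resting cells (0.70). Vcp, the ATPase that extracts ubiquitinated proteins, rose by 0.75, Akirin2, which takes proteasomes into the nucleus, by 0.74 and Usp14, a deubiquitinase on the base, by 0.73. Those called lower included Fbxo7, a ubiquitin ligase adaptor that also binds Psmf1 (-1.02), and the protease gene Ddi2, which cleaves and activates Nfe2l1 (-0.31). Fbxo7 was sparse, at 3.80 and 3.39 CPM in late differentiating cells, against 6.92 and 7.94 CPM in resting cells.

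**Figure D2:**
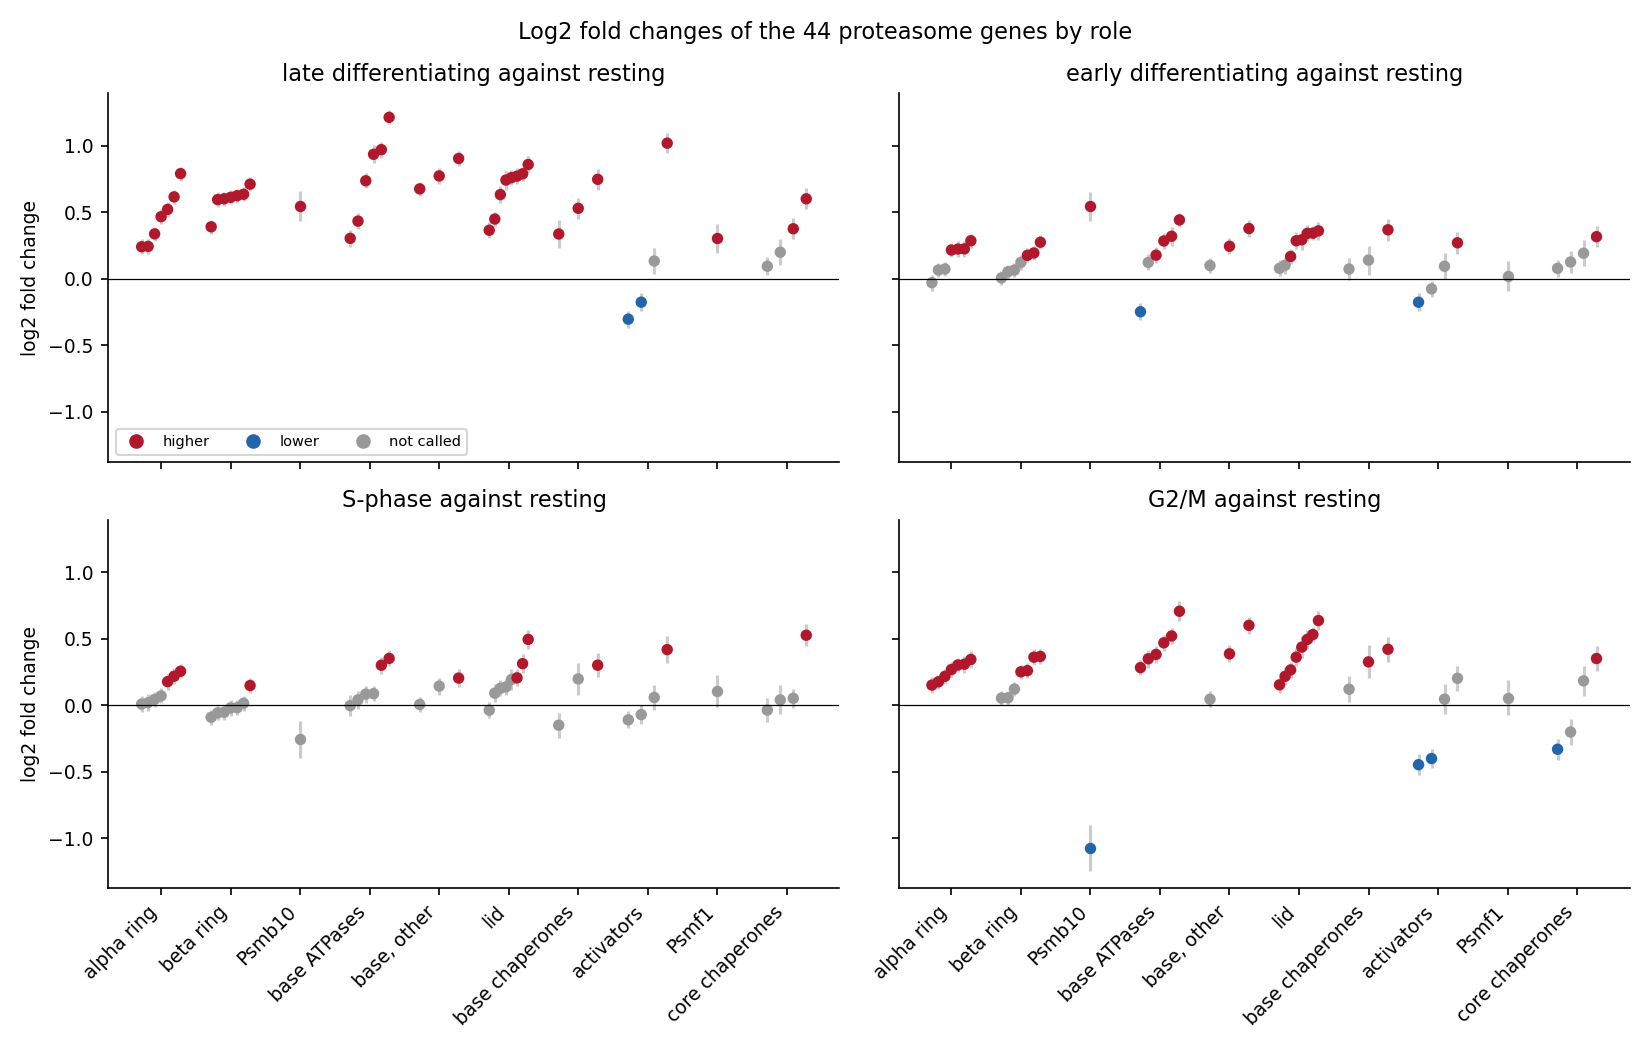
Each point is 1 of the 44 proteasome genes, placed by its role (x axis) at its log2 fold change on the TMM scale (y axis) with 1 SE, in 4 lens gates against resting cells; red points were called higher, blue lower and grey not called by edgeR at an adjusted p of 0.05. All core and regulatory particle genes lie above 0 in late differentiating cells, while Psme1 and Psme2 lie below 0 at -0.30 and -0.18; with total UMIs 15 of the 44 genes were higher and 15 lower.

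The late gate was cut from a sum of marker UMIs, and 16.1% of its cells lay within 20% above the cut-off, so the shares were also followed along that sum in lens cells outside the cycle gates. From the lowest to the highest bin (under 150 and over 1000 late marker UMIs per 10000), the core share of UMIs outside crystallins was 0.376% and 0.582% in pool 1 and 0.395% and 0.560% in pool 2. The regulatory particle share was 0.229% and 0.387% in pool 1 and 0.229% and 0.360% in pool 2. Both climbed at each of the 5 steps in both pools. The late marker sum includes the crystallin genes Cryba2, Crybb1 and Crybb3. Crystallin content therefore rises with the bins in part by construction, and leaving crystallins out then raises a share more in the higher bins. Of all UMIs, the core share was 0.351% in the lowest and 0.356% in the highest bin of pool 1, and 0.368% and 0.348% in pool 2. In between it was not flat: it peaked in the bin from 150 to 300, at 0.399% in pool 1 and 0.414% in pool 2. The regulatory particle share of all UMIs was highest in the bin from 700 to 1000, at 0.261% and 0.256% (pools 1 and 2). In the highest bin it was 0.237% and 0.223%, below the 0.244% and 0.238% of the bin from 150 to 300. In the lowest bin it was 0.214% and 0.213%. Psme1 and Psme2 together ended lower, with 0.0229% and 0.0184% of UMIs outside crystallins in the lowest and highest bins of pool 1 and 0.0241% and 0.0158% in pool 2. Their fall was not stepwise. The share rose at the first step in both pools, and at the last step of pool 1 it rose from 0.0176% to 0.0184%. Depth moved with the sum: the median total was 5529 and 14327 UMIs in these bins of pool 1 and 6954 and 15269 in pool 2, and its part in the shares was not tested along the bins.

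**Figure D3:**
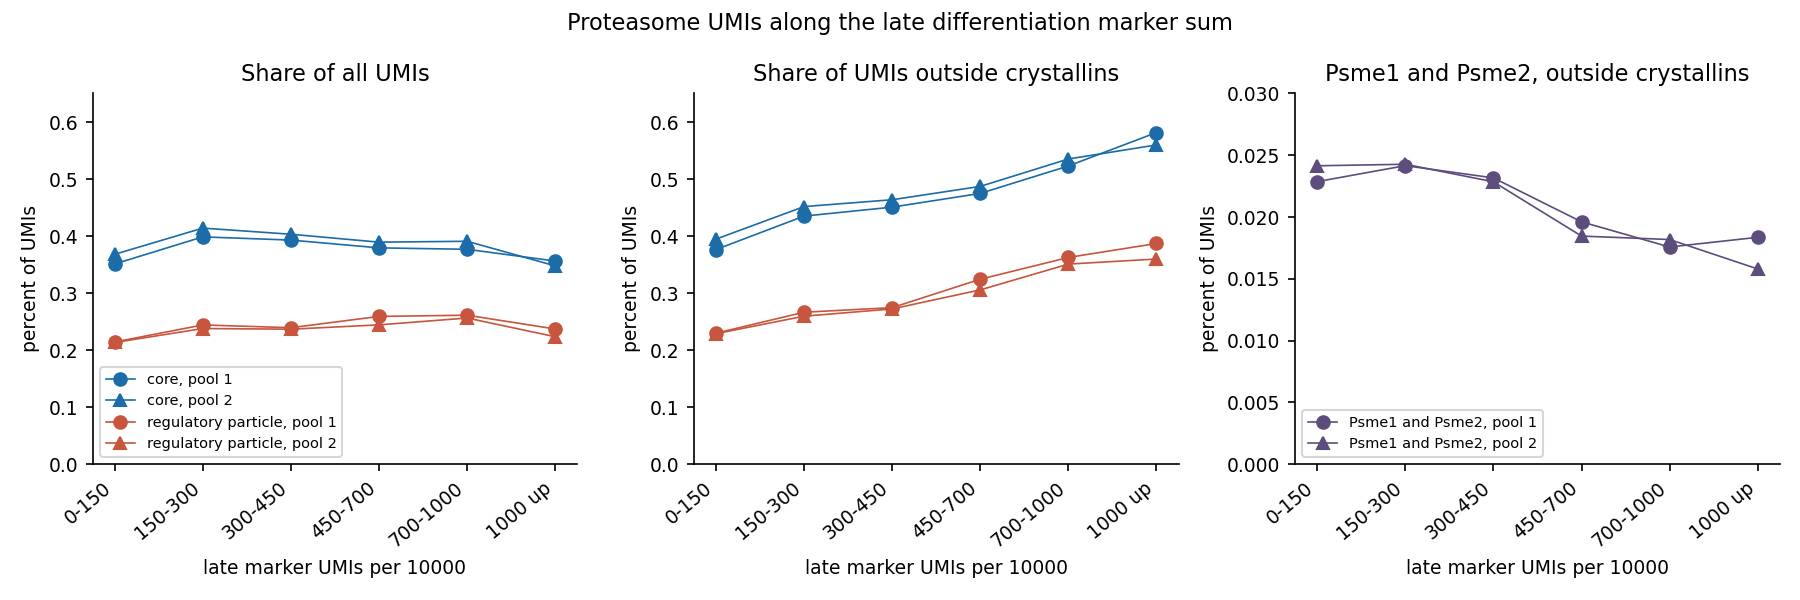
The panels plot core (blue) and regulatory particle (red) UMIs as a percent of all UMIs (left) and of UMIs outside crystallins (middle), and Psme1 with Psme2 (right, purple), in 6 bins of late marker UMIs per 10000 (x axis), with circles for pool 1 and triangles for pool 2. Outside crystallins the core share climbs from 0.376% to 0.582% in pool 1 along the bins, whose markers include crystallin genes. Its share of all UMIs peaks in the bin from 150 to 300, at 0.399% and 0.414%, and is 0.356% and 0.348% in the highest bin (pools 1 and 2).

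Early differentiating cells, marked by Cdkn1c and its companions, changed less. Of the 44 genes, 23 were called higher than in resting cells and 2 lower, against 22.1% and 18.2% of all genes tested, with a median log2 fold change of 0.18 over the members and 0.03 over all genes. Among core genes 7 rose, and among regulatory particle genes 12 rose and 1 fell. Without the pool as a block, 12 genes were called higher and 0 lower.

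Psmb10 changed most, with 22.4 and 25.4 CPM in early differentiating cells, against 14.8 and 18.4 CPM in resting cells (0.54 ± 0.11, edgeR adjusted p = 5.18e-05). Psmc5 had 247 and 255 CPM, against 179 and 191 CPM in resting cells (0.44 ± 0.05, edgeR adjusted p = 1.0e-09). Psmd1 had 118 and 122 CPM, against 96.7 and 88.2 CPM in resting cells (0.38 ± 0.06, edgeR adjusted p = 9.92e-07). All 3 were higher in both pools, with no overlap. Psmd9, a chaperone of the base, rose by 0.37. The standard catalytic subunits were not called: the log2 fold changes were 0.12 for Psmb7, 0.07 for Psmb5 and 0.05 for Psmb6. Psmc3 fell, with 139 and 133 CPM in early differentiating cells, against 157 and 166 CPM in resting cells (-0.25 ± 0.06, edgeR adjusted p = 0.00136), as did Psme2 (-0.18). Of the activators, inhibitor and core chaperones, Psme4 (0.27) and Psmg2 (0.32) rose, and Psme1, Psme3, Psmf1, Psmg1, Psmg3 and Psmg4 were not called. Of the 27 other pathway genes, 8 rose and 5 fell, against 22.1% and 18.2% of all genes, among them Usp14 (0.57) and Nfe2l1 (0.35) higher and Fbxo7 (-0.97) lower.

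The cycling gates differed in how many members moved. In G2/M cells 30 of the 44 genes were called higher and 4 lower, against 20.0% and 18.1% of all genes tested, and the median log2 fold change was 0.27 over the members and -0.01 over all genes. In S-phase cells 13 were higher and 0 lower, against 19.2% and 14.7% of all genes, with a median of 0.08 over the members and -0.02 over all genes. S-phase calls came to 8 higher with DESeq2 and to 4 without the pool as a block. At an unadjusted p under 0.05, 17 members passed in S-phase. The difference between the cycling gates themselves was not tested.

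In G2/M cells, 16 of 17 regulatory particle genes rose, with a median of 0.39, and 11 of 14 core genes rose, with a median of 0.26. Psmc1 had 100.5 and 99.4 CPM in G2/M cells, against 60.3 and 62.8 CPM in resting cells (0.71 ± 0.08, edgeR adjusted p = 2.69e-11). Psmd14, which cuts ubiquitin chains from the substrate, had 101 and 110 CPM, against 67.0 and 69.1 CPM in resting cells (0.64 ± 0.07, edgeR adjusted p = 5.27e-11). Psmd1 had 144 and 137 CPM, against 96.7 and 88.2 CPM (0.60 ± 0.07, edgeR adjusted p = 3.98e-11), and Psmd7, the lid partner of Psmd14, had 240 and 209 CPM, against 163 and 147 CPM (0.53 ± 0.06, edgeR adjusted p = 5.64e-11). All 4 were apart between the gates in both pools. As background, cells leave mitosis through degradation of cyclins by the proteasome.

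The 4 members lower in G2/M cells were Psmb10, Psme1, Psme2 and Psmg4. Psmb10 had 5.77 and 9.52 CPM in G2/M cells, against 14.8 and 18.4 CPM in resting cells (-1.08 ± 0.17, edgeR adjusted p = 7.05e-07), from 28 and 55 UMIs in G2/M cells. Psme1 had 93.7 and 103 CPM, against 128 and 132 CPM in resting cells (-0.40 ± 0.07, edgeR adjusted p = 3.23e-06). Psme2 had 66.3 and 71.9 CPM, against 89.7 and 99.7 CPM (-0.45 ± 0.08, edgeR adjusted p = 2.9e-06). Psmb10, Psme1 and Psme2 are the members known to be induced by interferon gamma, and in all 3 the pools of the G2/M gate lay below both resting pools. Psmg4 had 55.0 and 72.2 CPM in G2/M cells, against 68.6 and 92.2 CPM in resting cells (-0.33), and its ranges overlapped, though it was lower within each pool. Of the catalytic subunits, Psmb7 (0.36) and Psmb6 (0.25) rose and Psmb5 was not called (0.06). Psme3, Psme4, Psmf1, Psmg1 and Psmg3 were not called, and Psmg2 rose by 0.35.

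In S-phase cells the chaperone gene Psmg2 changed most, with 53.9 and 52.0 CPM, against 36.8 and 36.6 CPM in resting cells (0.53 ± 0.08, edgeR adjusted p = 9.55e-07). Psmd14 had 95.9 and 95.8 CPM in S-phase cells, against 67.0 and 69.1 CPM in resting cells (0.49 ± 0.07, edgeR adjusted p = 4.16e-08). Psme3 had 39.9 and 29.3 CPM, against 26.7 and 24.9 CPM (0.42 ± 0.10, edgeR adjusted p = 0.000847), and Psmc4, a base ATPase, had 192 and 207 CPM, against 159 and 154 CPM (0.35 ± 0.06, edgeR adjusted p = 4.03e-06). Psme3 lost its call without the pool as a block (edgeR adjusted p = 0.0796). Psmb5 (-0.02), Psmb6 (-0.06), Psmb7 (-0.02) and Psmb10 (-0.25) were not called, nor were Psme1, Psme2, Psme4, Psmf1, Psmg1, Psmg3 and Psmg4.

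Among the other pathway genes, Uchl5, a deubiquitinase of the regulatory particle, had 63.0 and 77.4 CPM in G2/M cells, against 29.3 and 33.6 CPM in resting cells (1.16), and 49.1 and 56.5 CPM in S-phase cells (0.75). Akirin2 had 102 and 96.6 CPM in G2/M cells, against 52.3 and 46.7 CPM in resting cells (1.00), whereas in S-phase cells it was lower (-0.25). In G2/M cells 13 of the 27 rose and 2 fell, against 20.0% and 18.1% of all genes. In S-phase cells 6 rose and 5 fell, against 19.2% and 14.7% of all genes, which is near the background. Nfe2l1 fell in both, with log2 fold changes of -0.26 in G2/M and -0.30 in S-phase cells.

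The 4 lens comparisons share the resting cells, so each gives only its own values. For Psmb10 the log2 fold changes were 0.54 in late differentiating, 0.54 in early differentiating and -1.08 in G2/M cells, where it was called, and -0.25 in S-phase cells, where it was not.

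Vascular cells were compared with resting LECs by the same fit. In sums over a gate, fewer molecules per cell and fewer expressing cells cannot be told apart. Of the 44 genes, 4 were called higher in endothelial cells and 19 lower, against 30.4% and 29.2% of all genes tested, with a median log2 fold change of -0.18 over the members and -0.03 over all genes. Of the 14 core genes 0 rose and 10 fell, with a median of -0.27. Of the 17 regulatory particle genes 2 rose and 7 fell, with a median of -0.08. With total UMIs, 8 members were higher and 11 lower, with 1 core gene higher and 5 lower. The median of all genes moved to 0.10. The members lay 0.14 below it, and 0.15 below the median with TMM, a gap that the change of scale leaves nearly fixed. Within the depth window, 2 were higher and 12 lower. The pools differed in size of change: the median over the members was -0.29 without pool 1 and -0.09 without pool 2, as values with no test. The dissociation response genes summed to 3913 and 4013 CPM in endothelial and 5080 and 4949 CPM in mural cells, against 8582 and 7465 CPM in resting cells, and their part was not tested.

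Psmb10 stood out in direction, with 43.7 and 39.3 CPM in endothelial cells, against 14.8 and 18.4 CPM in resting cells (1.37 ± 0.18, edgeR adjusted p = 1.56e-09). The constitutive catalytic subunits went the other way. Psmb6 had 258 and 239 CPM in endothelial cells, against 361 and 386 CPM in resting cells (-0.57 ± 0.07, edgeR adjusted p = 8.26e-10). Psmb5 had 229 and 232 CPM, against 316 and 322 CPM (-0.47 ± 0.07, edgeR adjusted p = 2.84e-07), and Psmb7 had 107 and 113 CPM, against 143 and 168 CPM (-0.48 ± 0.10, edgeR adjusted p = 1.77e-05). Psmb10 replaces Psmb7 in proteasomes that carry inducible subunits. All 4 genes had no overlap between the gates.

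Psmg4, a chaperone of the alpha ring, fell furthest, with 34.4 and 37.4 CPM in endothelial cells, against 68.6 and 92.2 CPM in resting cells (-1.13 ± 0.14, edgeR adjusted p = 7.61e-10). Psmf1 had 32.1 and 24.0 CPM, against 17.9 and 18.6 CPM (0.67 ± 0.19, edgeR adjusted p = 0.00195), Psmd3, a lid gene, 109 and 68.1 CPM, against 60.4 and 59.2 CPM (0.63 ± 0.12, edgeR adjusted p = 7.09e-06), and Psmc1 99.7 and 72.0 CPM, against 60.3 and 62.8 CPM (0.53 ± 0.12, edgeR adjusted p = 9.53e-05). In these 3 genes the endothelial pools differed more from each other than the resting pools did, with pool 1 the higher. The 18 G2/M marker genes also differed, with sums of 1505 and 304 CPM in endothelial cells, against 65.7 and 62.5 CPM in resting cells, and the part of cycling cells in these values was not tested. Within the depth window, which held 58 and 43 endothelial cells, Psmf1 (0.38, edgeR adjusted p = 0.429) and Psmd3 (0.45, edgeR adjusted p = 0.0776) lost their calls, while Psmb10 and Psmg4 kept theirs. Psme2 fell (-0.48), and Psme1 (-0.06), Psme3 (-0.18), Psme4 (0.02), Psmg1 (-0.20), Psmg2 (-0.11) and Psmg3 (-0.20) were not called.

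Of the 27 other pathway genes, 9 were higher and 4 lower in endothelial cells, and the higher count is near the 30.4% of all genes called higher. Nfe2l2, the oxidative stress factor, had 62.4 and 48.0 CPM in endothelial cells, against 21.5 and 15.5 CPM in resting cells (1.57). Ddi2 had 86.9 and 96.0 CPM, against 40.3 and 34.4 CPM (1.25). Pomp had 572 and 548 CPM, against 293 and 304 CPM (0.91), so that the maturation factor of the core was higher where 10 of the 14 core genes were lower.

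In mural cells 2 members were higher and 13 lower than in resting cells, against 20.1% of all genes in each direction. The median was -0.18 over the members and -0.16 over all genes, so as a whole the members lay 0.02 below the other genes. With total UMIs, 6 were higher and 5 lower, and the median of all genes was 0.03. Among core genes 0 rose and 7 fell, and among regulatory particle genes 1 rose and 4 fell. The mural sums were the smallest in the fit, with 351364 and 447564 UMIs, which widens the errors.

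Psmb10 had 45.4 and 51.8 CPM in mural cells, against 14.8 and 18.4 CPM in resting cells (1.57 ± 0.27, edgeR adjusted p = 2.51e-06), from 19 and 27 UMIs in mural cells. Psmd8, a lid gene, was the other member called higher, with 296 and 288 CPM, against 186 and 200 CPM (0.60 ± 0.10). The core chaperone genes Psmg1 and Psmg4 fell. Psmg1 had 14.3 and 24.9 CPM in mural cells, against 41.0 and 43.2 CPM in resting cells (-1.07 ± 0.30, edgeR adjusted p = 0.00342), and Psmg4 had 33.5 and 53.7 CPM, against 68.6 and 92.2 CPM (-0.86 ± 0.21, edgeR adjusted p = 0.00068). Psmb7 had 88.4 and 106 CPM in mural cells, against 143 and 168 CPM in resting cells (-0.67 ± 0.15, edgeR adjusted p = 0.000174). Psmb6 fell (-0.41), Psmb5 was not called (-0.17), and none of Psme1, Psme2, Psme3, Psme4, Psmf1, Psmg2 and Psmg3 was called. The depth window left 8 and 12 mural cells, with 0 members called higher and 5 lower, and there Psmb10 (0.13, edgeR adjusted p = 0.942), Psmg1 (-0.83), Psmg4 (-0.63) and Psmb7 (-0.71) were not called by edgeR.

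Both vascular comparisons use the same resting cells. Psmc5, the ATPase gene that rose most in late differentiating cells, had 139 and 123 CPM in endothelial cells and 110 and 127 CPM in mural cells, against 179 and 191 CPM in resting cells, and was called lower in both.

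**Figure D4:**
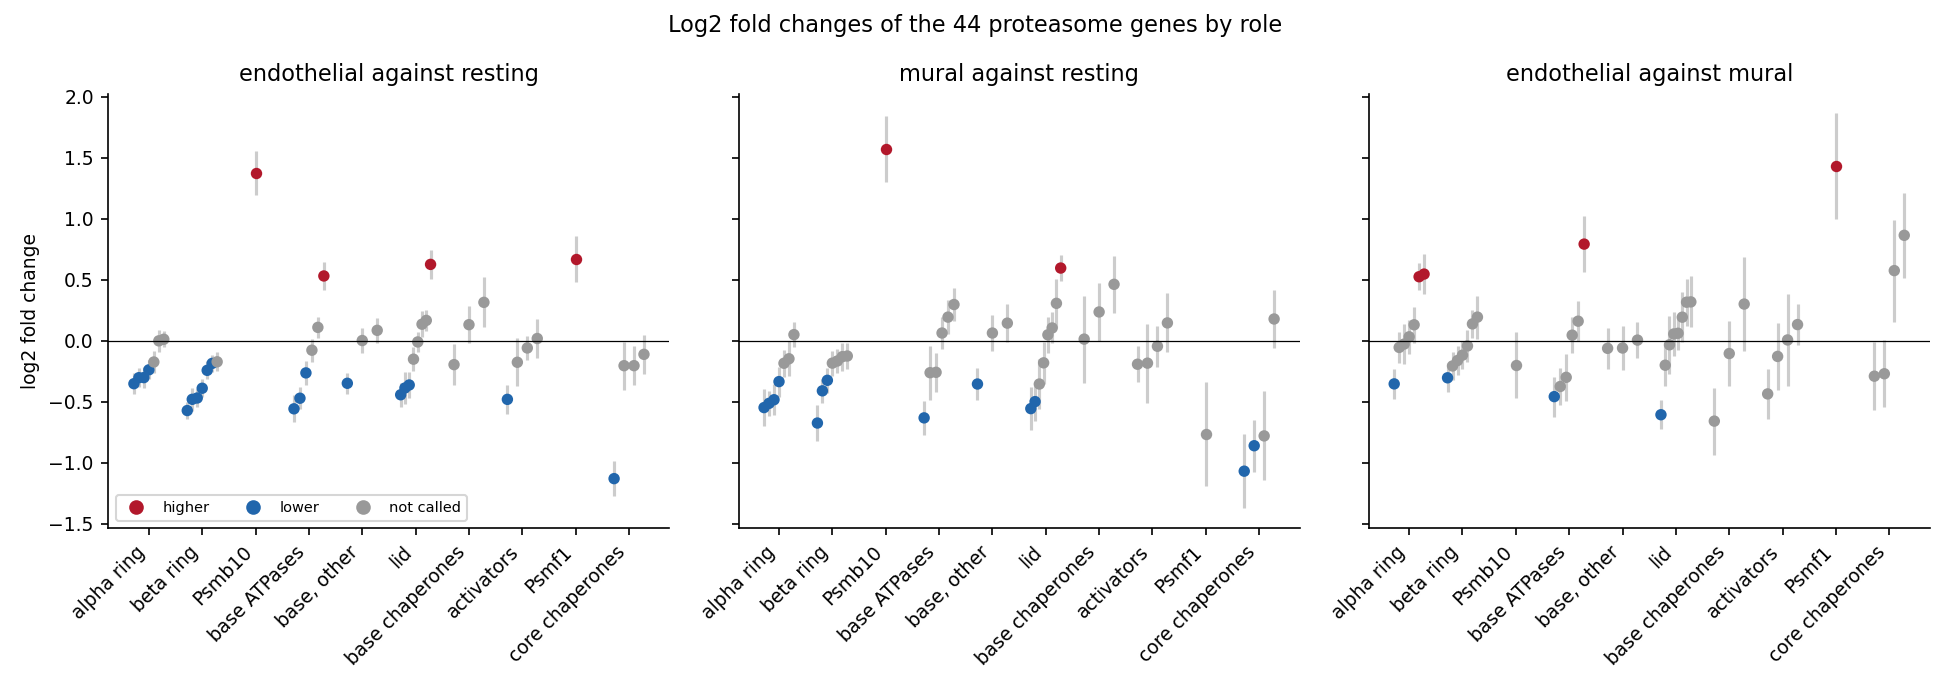
Each point is 1 of the 44 proteasome genes by role (x axis), at its log2 fold change on the TMM scale (y axis) with 1 SE, in endothelial and mural cells against resting cells and in endothelial against mural cells; red was called higher, blue lower and grey not called by edgeR at an adjusted p of 0.05. Psmb10 lies at 1.37 and 1.57 in the first 2 panels, above the core rings, whose called genes all lie below 0 there, while with total UMIs 1 core gene was called higher in endothelial cells.

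Set against each other, endothelial cells had 4 members higher and 4 lower than mural cells, against 15.3% and 13.2% of all genes tested, with a median of -0.03 over the members and 0.13 over all genes. Psmf1 had 32.1 and 24.0 CPM in endothelial cells, against 11.95 and 9.6 CPM in mural cells (1.43 ± 0.43, edgeR adjusted p = 0.00802), where it rested on 5 and 5 UMIs. Psmc1 had 99.7 and 72.0 CPM, against 50.2 and 51.8 CPM in mural cells (0.79 ± 0.23, edgeR adjusted p = 0.00577), and Psma6 had 169 and 151 CPM, against 136 and 90.2 CPM (0.55 ± 0.17, edgeR adjusted p = 0.00919). Psmd8 was lower, with 199 and 180 CPM in endothelial cells, against 296 and 288 CPM in mural cells (-0.61 ± 0.12, edgeR adjusted p = 4e-05). Psma7 (0.53) was also higher, and Psmc6 (-0.46), Psma3 (-0.35) and Psmb5 (-0.30) were also lower. Psmb5 lost its call in 5 other settings (edgeR adjusted p between 0.0603 and 0.995), and in the depth window, with its 8 and 12 mural cells, 1 member was called. Psmb6, Psmb7 and Psmb10 were not called, nor were Psme1 to Psme4 and Psmg1 to Psmg4. Scaling by DESeq2's size factors gave 4 higher and 8 lower. Of the 27 other pathway genes 9 were higher and 2 lower, against 15.3% and 13.2% of all genes, with Ddi2 at 1.47 and Pomp at 1.13.

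**Figure D5:**
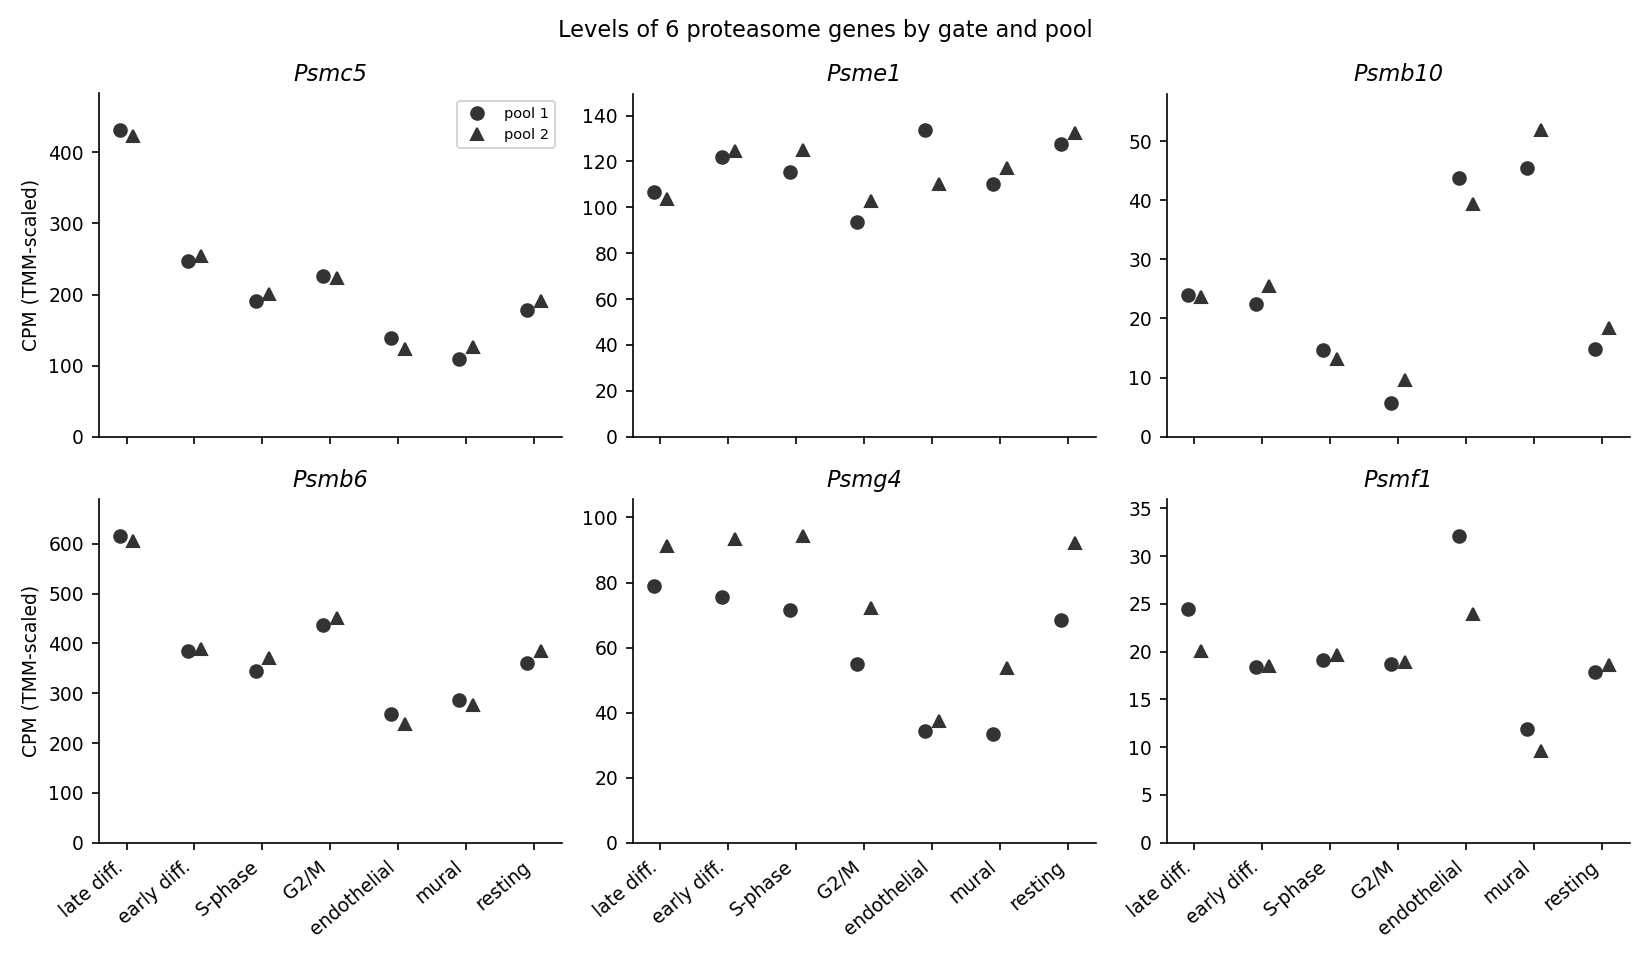
Levels in TMM-scaled CPM (y axis) of 6 proteasome genes in the 7 gates of the fit (x axis), with circles for pool 1 and triangles for pool 2. Psmc5 is highest in late differentiating cells (431 and 424 CPM), Psmb10 is highest in mural and endothelial cells of these 7, and Psmg4 is lower in both vascular gates than in any lens gate of the same pool.

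The 47 macrophages held 193064 UMIs and were not tested. Psmb10 had 7 and 22 UMIs there, or 75.0 CPM of all UMIs, without TMM (exact Poisson 95% interval 30.2 to 155) and 220 CPM (138 to 334), against 15.4 and 18.5 CPM in resting cells. Psme1 had 27 and 18 UMIs, or 289 (191 to 421) and 180 (107 to 285) CPM, against 133 and 134 CPM in resting cells. Psme2 had 12 and 22 UMIs, or 129 (66.5 to 225) and 220 (138 to 334) CPM, against 93.6 and 101 CPM. Psmb5 was lower, at 129 (66.5 to 225) and 100.2 (48.1 to 184) CPM, against 330 and 325 CPM in resting cells. Psmb6 had 225 (139 to 344) and 271 (178 to 394) CPM, against 377 and 390 CPM. Psmb7 had 118 (58.9 to 211) and 120 (62.1 to 210) CPM, against 149 and 170 CPM. The resting level lay inside the interval of Psmb7 in both pools and of Psmb6 in pool 2. Psmf1 had 0 UMIs in both pools, with an exact Poisson upper limit of 19.1 CPM over both, against 18.6 and 18.8 CPM in resting cells. That limit lies above the resting level, so these counts do not show a lower level in macrophages. The intervals cover counting error only.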

How the data were processed

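Libraries of lens epithelial cells from both pools were made with the 10x 3′ v3.1 kit, which counts transcript ends, so levels are not scaled by transcript length. Per the file headers, the authors deposited raw UMI counts per gene and barcode from Cell Ranger 6.1.1, and the submitters' processing notes name the build mm10. The 2 count tables held 93839132 and 86033032 UMIs, with a median of 6307 and 8050 UMIs per barcode.

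Barcodes between the 2nd and 97th percentiles of genes and UMIs and at most 15% mitochondrial UMIs were kept, and the 8% with the highest Scrublet score (scanpy 1.11.5) were removed in each pool. Gates were set by summed markers per 10000 UMIs: late differentiating at least 450, early differentiating 22, S-phase 12, G2/M 20, and resting at least 10 with S-phase under 6 and G2/M under 5. Lens cells needed at least 2% alpha crystallin and 1% mitochondrial UMIs, and vascular cells at least 4 own markers and at most 1 of another vascular type. No proteasome gene was used. Of the lens cells kept, 4503 fell in no gate.

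UMIs were summed per pool and gate, giving 14 sums, and fitted in 1 model with the pool as a block (edgeR 4.0.16, filterByExpr, TMM, quasi-likelihood, residual degrees of freedom 6). The gates of a pool share animals and library, which is where the pairing comes from. Deviations of gates of 1 pool correlated at 0.0142 to 0.267 over 21 pairs. The block removes the difference between pools that all gates share. The p-values therefore rest on how differences between gates vary between these 2 pools only, with 1 estimate over all gates of the fit. In simulated counts for late differentiating against resting cells, over 13428 genes, 82 of 100 genes changed by 1 on the log2 scale and 59 of 100 changed by 0.5 were recovered, with 10 false calls among 13228 unchanged genes. All simulated sums took the resting means, with 1 common dispersion, no pool effect and as many genes raised as lowered. They held no shift in composition, so they cannot show how calls behave under the scaling of late differentiating cells. Named genes are the catalytic subunits Psmb5, Psmb6, Psmb7 and Psmb10, the activators, inhibitor and core chaperones, and in each comparison the 4 members with the largest absolute log2 fold change past the threshold, changed the same way in both pools and at 20 CPM or more in 1 of the groups. Others were named after their values were seen. The members, gene lists and gates were chosen with earlier results of these data known. Alternatives covered normalization, filters, DESeq2 1.42.0, the block, doublets, upper limits, stricter gates and each pool alone. Promoters were taken from RefSeq and 3′ ends compared with blastn 2.17.0.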

Additional observations from a re-analysis of the deposited data

Results flagged for a closer look

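Psma8, which encodes an alpha subunit best known from the testis and close in sequence to Psma7, held 68 UMIs over both pools and so fell under the minimum of 100 UMIs. It appears here because it showed a signal outside the genes compared above. Of its 35 UMIs in a gate, 16 and 9 lay in endothelial cells (pools 1 and 2), or 10.3 counts per 1000000 UMIs (CPM) (exact Poisson 95% interval 6.68 to 15.2), and 2 and 3 in mural cells, or 6.26 CPM (2.03 to 14.6). Resting cells had 0 of 27419047 UMIs, which is 0.109 CPM at 3 counts over both pools, with an exact Poisson upper limit of 0.1345 CPM. The lower end of the interval in endothelial cells was 61.0-fold the 3-count level, and less than that against the exact limit. Late differentiating cells had 3 UMIs in all. No test was run, the intervals cover counting error only, and doublets or carried-over RNA were not tested.

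Psmb11, which encodes the catalytic subunit known from the thymus, held 18 UMIs over both pools, of which 10 lay in a gate. They were spread over the lens gates, with 3 each in early differentiating and G2/M cells, 2 in resting cells and 0 in endothelial and mural cells, and no gate exceeded 0.297 CPM among those with any.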

How the results depend on the processing

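The number of members called moved by more than 1.5 times in these cases. Without the replicate block, 12 genes were called in early differentiating cells, against 25 with it, and 4 in S-phase cells, against 13. With DESeq2, 8 were called in S-phase cells. In the window of 5000 to 10000 UMIs, added after seeing the data, 14 were called in endothelial cells against resting cells (23 in all cells), 5 in mural cells (15) and 1 between endothelial and mural cells (8). That window holds fewer cells. There the log2 core over regulatory particle ratio was 0.68 in late differentiating cells and 0.43 in mural cells, against 0.60 and 0.53 in all cells of these gates. With total UMIs, these members changed sign in late differentiating cells: Psma1 (-0.33), Psma2 (-0.23), Psma4 (-0.10), Psma5 (-0.33), Psma6 (-0.0471), Psmb4 (-0.18), Psmb10 (-0.0245), Psmc3 (-0.27), Psmc6 (-0.14), Psmd5 (-0.23), Psmd7 (-0.12), Psmd10 (-0.0394), Psmd11 (-0.20), Psme3 (-0.44), Psmf1 (-0.27), Psmg1 (-0.19), Psmg3 (-0.37) and Psmg4 (-0.47). In the window, the sign changes that involved a call were Psma5 in late differentiating cells (-0.0302) and Psmc6 in endothelial against mural cells (0.10). Changes of sign without a call are not listed. For example, the median over regulatory particle genes in mural against resting cells was 0.05 in all cells and -0.40 in the window. Over 44 members, 7 comparisons and 11 settings, 3138 of 3388 values kept their side of the threshold, with no called sign reversed. Of the rest, 163 lost the call, 67 gained it, and 20 changed sign with a call in the main or the other setting. Sign changes without any call were counted among the 3138. With 1 pool left out no residual degrees of freedom remain, so those values have no test: the median log2 fold change of the members then lay between 0.54 and 0.64 in late differentiating, 0.17 and 0.17 in early differentiating, 0.07 and 0.08 in S-phase, 0.27 and 0.27 in G2/M, -0.29 and -0.09 in endothelial and -0.23 and -0.14 in mural cells against resting cells, and between -0.11 and 0.02 in endothelial against mural cells. The upper limit on genes and UMIs moved the endothelial split to 9 higher and 21 lower without it. Depth limits the mural gate most.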

Other observations

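The pools differed in a like way across gates. The core over regulatory particle ratio was higher in pool 2 in all 8 gates. Psmb3, Psmb7, Psme4 and Psmg4 had the higher CPM in pool 2 in all 7 gates of the fit, and Psmd2, Psmd3 and Psme3 in pool 1. In resting cells Psmg4 had 68.6 CPM in pool 1 and 92.2 CPM in pool 2. The labels give no batch beyond the pool, and pool and library cannot be told apart.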
